A study of Mus musculus with 12 samples.

Results

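The genes described here encode chains of the cytokines IL-6, IL-12, IL-23, IL-27 and IL-10 and chains of their receptors, measured in microglia of the mouse hippocampus at 2 ages. The 10 genes were chosen by symbol, and the table held all 10 of them among its 545 immune genes. The ligand chains numbered 6 (Il6, Ebi3, Il12a, Il12b, Il23a and Il10) and the receptor chains 4 (Il6ra, Il6st, Il12rb1 and Il10ra). Of these, 3 ligand chains and 3 receptor chains exceeded background in enough samples for a test.

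Cytokines of the IL-6 and IL-12 families signal through receptors that share chains. IL-6 binds its own receptor chain, Il6ra, and then recruits the common signalling chain gp130, encoded by Il6st, which activates JAK kinases and STAT3. IL-12, IL-23, IL-27 and IL-35 are heterodimers that trade subunits: Il12b pairs with Il12a in IL-12 and with Il23a in IL-23, and Ebi3 pairs with Il27 in IL-27 and with Il12a in IL-35. IL-12 and IL-23 share the receptor chain Il12rb1, and IL-27 signals through Il27ra together with gp130. IL-10, which dampens the inflammatory output of macrophages and microglia, binds Il10ra and signals with Il10rb.

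The samples were microglia, the resident macrophages of the brain, taken from male Balbc pups that were 14 days old (P14, n = 6) or 28 days old (P28, n = 6). All animals were controls from different litters, so each sample is a separate animal, and no sample from a stressed animal was analysed here. The cells were enriched on a Percoll gradient and sorted by flow cytometry, and their RNA was read on an nCounter panel of mouse immune genes, where a fluorescent barcode reports each transcript. The comparison asks how the expression of these genes differs between the 2 ages in a study of microglial maturation. Each barcode count comes from a single probe per transcript, so counts are not divided by length. Probes and amplification primers differ between genes, and an order of levels between genes is therefore a description only.

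The summed raw counts of the 545 genes ranged from 356398 in P14 sample 5 to 1534665 in P28 sample 118. A count was taken as above background when it lay more than 2 SD over the average of its lane's 8 negative probes, a threshold between 12.9 and 33.4 counts, and a gene was tested when this held in at least 40% of the 12 samples. All 6 microglial markers examined (Cx3cr1, Csf1r, Trem2, Tyrobp, Itgam and Ptprc) were tested, with summed scaled counts of 177352 to 205936 at P14 and 183113 to 223180 at P28. Scaled counts are raw counts divided by the geometric mean of 6 reference genes. Of 366 genes tested with edgeR's quasi-likelihood test, 30.6% passed a false discovery rate of 0.05, 16.7% higher and 13.9% lower at P28. Among the microglial markers, Csf1r and Itgam made up most of the sums. Trem2 passed as higher at P28 (log2 fold change 0.71 ± 0.13, SE, adjusted p = 0.000687 by edgeR) and the other markers did not pass. P14 samples 4 and 5 lay apart from the other 4 P14 samples for several genes. Values without them are given below for some, but not all, of the genes whose call or direction they change. In bulk RNA, fewer cells of a type and less RNA per cell cannot be told apart.

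The 3 tested receptor chains lay above the 3 tested ligand chains in every sample. The fourth receptor chain, Il12rb1, was under the background threshold in all 12 samples and is not part of this contrast. The receptor chains Il6ra, Il10ra and Il6st were among the most abundant transcripts, and ranked 11, 18 and 21 among the 366 tested genes by mean scaled count. The ligand chains Ebi3, Il23a and Il10 ranked 208, 325 and 327. Within each sample, the lowest of the 3 receptor chains gave 19.2 to 51.8 times the raw count of the highest ligand chain at P14, and 76.8 to 112 times at P28. The highest ligand chain was Ebi3 in every sample, so this ratio rests on Ebi3 among the ligands. The summed counts of the 3 receptor chains over those of the 3 ligand chains had a median of 130.4 at P14 and 229 at P28, and their ranges did not overlap (84.6 to 172 and 218 to 251). Ebi3 made up most of the ligand sum, with mean scaled counts of 288 at P14 and 105 at P28. Il23a (23.8 and 34.9) and Il10 (25.4 and 32.2) were lower, so this ratio also rests largely on Ebi3.

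The changes with age are given here by role; the difference between roles was not tested. Of the 3 tested ligand chains, Ebi3 fell, Il23a rose and Il10 did not pass the test, with a median log2 fold change (P28 over P14) of 0.32. Of the 3 tested receptor chains 0 passed, and their log2 fold changes lay between -0.10 and 0.18 with a median of 0.0079. Over all 366 genes the median was 0.0026 and the median size of a change was 0.30. In all, 2 of the 6 tested members passed, beside 30.6% of all tested genes. The ages did not overlap for 1 member, Ebi3, beside 20.8% of all tested genes in either direction and 7.92% lower at P28.

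**Figure D1:**
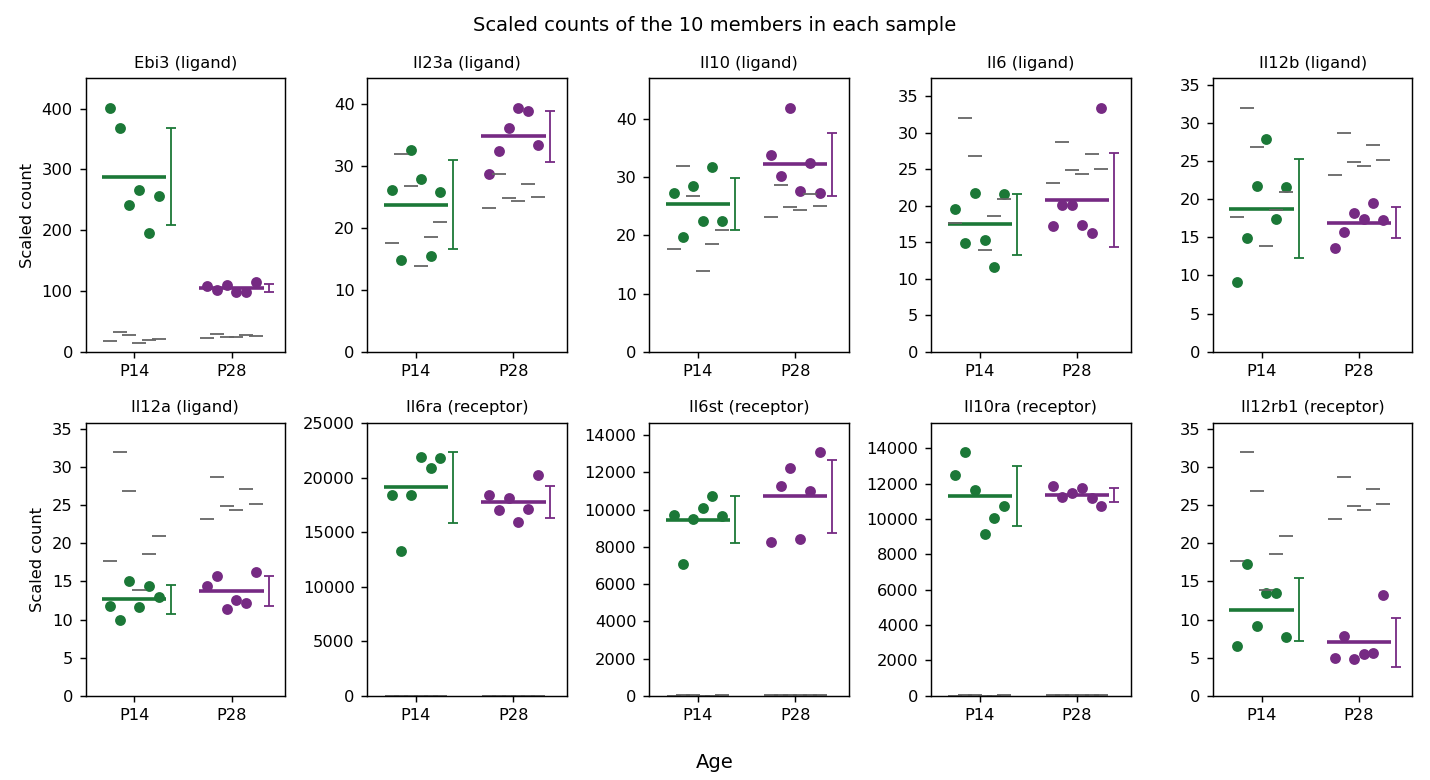
Scaled counts of the 10 members (vertical axes, linear, each from 0) in the 6 samples of each age. Points are samples, horizontal bars means, error bars SD, and grey ticks the background threshold of each lane on the same scale; Ebi3 fell from 195 or more in every P14 sample to 114 or less in every P28 sample, while Il12a and Il12rb1 stayed under their thresholds in all samples.

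**Figure D2:**
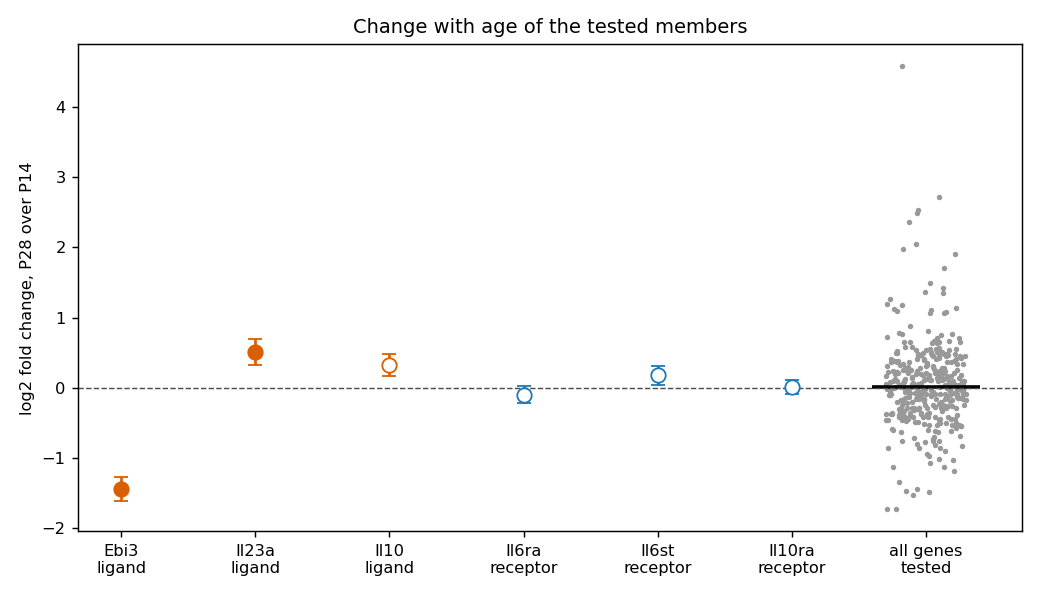
Log2 fold change, P28 over P14, of the 6 tested members with its SE from edgeR, beside the 366 tested genes in grey with their median as a bar. Filled symbols passed a false discovery rate of 0.05; Ebi3 lies at -1.45 and the 3 receptor chains between -0.10 and 0.18.

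Ebi3 was the member that changed most. This gene encodes the soluble receptor-like subunit of IL-27 and IL-35 and was first described in B cells infected with Epstein-Barr virus. Its scaled count at P14 ranged from 195 in sample 61 to 401 in sample 4, with a median of 261, and at P28 from 98.6 in sample 119 to 114 in sample 138, with a median of 104. Every P14 sample lay above every P28 sample. The mean went from 288 ± 79.7 to 105 ± 6.57 (SD, n = 6 each), a 2.73-fold fall (log2 fold change -1.45 ± 0.17, SE; adjusted p = 1.56e-05 by edgeR). By p-value, Ebi3 ranked 17 among the 366 genes.

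The P14 samples of Ebi3 were spread more widely than the P28 samples, a difference that was not tested. Its coefficient of variation was 27.7% at P14 and 6.25% at P28, beside medians over all tested genes of 23.1% and 15.6%. The spread at P14 came with samples 4 and 5, at 401 and 369 scaled counts, while the other 4 P14 samples lay between 195 and 266. Without these samples Ebi3 fell by a log2 fold change of 1.19 (-1.19 ± 0.12, adjusted p = 5.85e-06 by edgeR). In the authors' deposited table, the ratio of Ebi3 at P28 to P14 was 0.39, with a p-value of 0.0008.

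The summed counts of B cell and T cell markers were lower at P28 as well. The 4 B cell markers, of which 3 were tested, summed to 382 to 608 scaled counts at P14 and 224 to 345 at P28. Cd79b, which transmits signals from the B cell antigen receptor, fell (-1.20 ± 0.18) and Cd79a rose (0.76 ± 0.18). The 6 T cell markers summed to 163 to 198 at P14 and 114 to 149 at P28, with Cd3e above background in 0 samples and the kinase Lck as the only tested gene. The dendritic cell markers, of which Itgax alone was tested, moved the other way, from 51.9 to 105 at P14 to 180 to 228 at P28. The 2 natural killer cell markers measured, Klrk1 and Gzma, both fell, from sums of 39.6 to 87.2 at P14 to 25.7 to 35.3 at P28. Each was above background in 5 P14 samples and 0 P28 samples. Klrd1, a receptor chain of natural killer cells that was not on the list, rose from 15.9 ± 6.26 to 107 ± 8.81 (2.72 ± 0.21). The 4 neutrophil markers, of which Cxcr2 and Csf3r were tested, summed to 2827 to 8661 at P14 and 4158 to 8218 at P28. Csf3r made up most of these sums and did not pass (0.17 ± 0.28). Cxcr2, a chemokine receptor of neutrophils, fell from 46.7 ± 7.93 to 14.1 ± 2.89 (-1.74 ± 0.16). It was above background in 6 P14 samples and 0 P28 samples. Cdh5, the cadherin of endothelial junctions, fell as well (-0.63 ± 0.15). Pecam1, the more abundant endothelial marker, did not pass (-0.43 ± 0.21, adjusted p = 0.131 by edgeR). Of the monocyte and border macrophage markers, Ccr2 (0.42 ± 0.27) and Itga4 (0.51 ± 0.19) were tested and did not pass. The part of other cells in the fall of Ebi3 was not tested.

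The promoter of Ebi3 is shown because it belongs to the member with the clearest change, and that of Il6 because Il6 is a classical target of NF-kB whose transcript stayed near background. Each sequence runs from 250 bases before to 50 bases after the gene's start, from RefSeq on GRCm38.p6, and capitals mark matches to the NF-kB consensus on either strand. The Ebi3 window is chr17:55952373-55952672 on the plus strand, and the Il6 window chr5:30012864-30013163 on the plus strand.
Ebi3: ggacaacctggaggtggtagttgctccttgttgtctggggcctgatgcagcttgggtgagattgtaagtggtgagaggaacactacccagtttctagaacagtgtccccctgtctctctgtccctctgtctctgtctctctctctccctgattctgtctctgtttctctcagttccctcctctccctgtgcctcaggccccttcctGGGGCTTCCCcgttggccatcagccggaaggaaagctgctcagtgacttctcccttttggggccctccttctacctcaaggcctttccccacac
Il6: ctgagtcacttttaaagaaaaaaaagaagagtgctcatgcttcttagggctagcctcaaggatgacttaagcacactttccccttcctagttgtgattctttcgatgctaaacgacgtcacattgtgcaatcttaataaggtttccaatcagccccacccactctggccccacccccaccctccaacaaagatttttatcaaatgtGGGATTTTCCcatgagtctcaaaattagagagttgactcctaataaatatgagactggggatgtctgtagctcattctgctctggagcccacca
Each window held 1 match to the NF-kB consensus, which 4.5% of 32851 promoter windows of this length held. The windows of Il12a, Il12b, Il6ra and Il6st held 0. The Il6 window also held 1 match to the AP-1 motif TGANTCA (7.81% of all windows), and neither window held the STAT motif TTCNNNGAA (8.30%) or the PU.1 motif GAGGAAGT (3.20%), searched on both strands. These matches describe the letters of the windows and say nothing about binding. The table held promoters for 6 of the 10 members.

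The partner chains of Ebi3 did not pass or were near background. Il27, the helical subunit that pairs with Ebi3 in IL-27, did not pass, with means of 129 ± 19.1 and 138 ± 25.9 scaled counts (P14 and P28; 0.09 ± 0.15, adjusted p = 0.700 by edgeR). Its samples overlapped widely, from 104 to 156 at P14 and from 105 to 175 at P28. Within samples, the raw count of Ebi3 was 1.51 to 3.85 times that of Il27 at P14 and 0.622 to 0.940 times at P28. Ebi3 thus gave more counts than Il27 in all 6 P14 samples and fewer in all 6 P28 samples, a comparison added after the values were seen and not tested. Il12a, the partner of Ebi3 in IL-35 and of Il12b in IL-12, had raw counts of 4 to 18 at P14 and 12 to 20 at P28, and was above background in 0 of 12 samples.

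The receptor side of IL-27 held a gene that fell and a gene that did not pass. Il27ra, the ligand-specific chain, went from 36.2 ± 5.92 to 26.2 ± 4.43 scaled counts (-0.47 ± 0.15, adjusted p = 0.0287 by edgeR), with 6 of 6 samples above background at P14 and 4 of 6 at P28. That call was lost when P14 sample 25, 61 or 81 or P28 sample 134, 135 or 138 was left out (adjusted p up to 0.0713), and when the authors' factors (adjusted p = 0.0781) or the negative probes (adjusted p = 0.0761) set the scale. The shared chain Il6st is described below with IL-6. The ratio of Ebi3 to Il6st in the same sample does not depend on scaling, and its log2 mean went from -5.07 ± 0.55 to -6.65 ± 0.25 (SD, n = 6 each), a difference of -1.58 (exact two-sided permutation p = 0.00216, the smallest that 924 arrangements allow). Of 11 pairs named, 3 had both chains above background and were tested, and the Benjamini-Hochberg value over these 3 was 0.00649.

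Among the chains of IL-12 and IL-23, Il23a alone was tested. Il23a, the helical subunit specific to IL-23, ranged from 14.8 in sample 5 to 32.6 in sample 16 at P14, with a median of 26.0, and from 28.7 in sample 118 to 39.4 in sample 119 at P28, with a median of 34.8. The ages overlapped, with 4 of the 6 P28 samples above the highest P14 sample. The mean rose from 23.8 ± 7.14 to 34.9 ± 4.11 scaled counts, 1.42-fold (0.51 ± 0.18, adjusted p = 0.0463 by edgeR). All 6 P28 samples and 4 of 6 P14 samples were above background, with P14 samples 5 and 61 below it. Negative probes had scaled means of 12.1 ± 3.01 at P14 and 12.3 ± 0.716 at P28 (exact two-sided permutation p = 0.623).

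The rise of Il23a was close to the threshold. Its call held without P14 sample 16 or without P28 sample 118 and was lost when any of the other 10 samples was left out, with log2 fold changes of 0.40 to 0.62 over the 12 samples and adjusted p of up to 0.0877. It was also lost with total counts as the scale (adjusted p = 0.105), without Polr1b among the reference genes (adjusted p = 0.115), and without P14 samples 4 and 5 together (adjusted p = 0.0746). The same held with the negative probes as the scale (adjusted p = 0.285 by edgeR), and with no filter (adjusted p = 0.0568 by edgeR). With background subtracted the call was lost as well (adjusted p = 0.0951 by limma). With positive controls alone as the scale, the fold change was -0.22 (adjusted p = 0.590 by edgeR), on a scale where the median of all 366 genes was -0.74. Relative to the median gene of the same scale, Il23a lay between 0.49 and 0.52 higher in the main scaling and the 7 other scalings. A change of scale moves all genes by nearly the same amount, so this closeness is no evidence for the rise. The authors' deposited table gave a ratio of 1.60 for Il23a, with a p-value of 0.0015.

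The chains that Il23a needs as partners were near background at both ages. Il12b, the shared subunit of IL-12 and IL-23, had raw counts of 6 to 31 at P14 and 14 to 24 at P28, and was above background in P14 samples 25 and 81 alone. Il12rb1, the shared receptor chain, had raw counts of 5 to 15 at P14 and 5 to 13 at P28, with 0 of 12 samples above background. Il23r, the IL-23-specific receptor chain, was likewise above background in 0 samples. Il12rb2, the second chain of the IL-12 receptor, was above background in all samples at 53.6 ± 9.02 and 41.4 ± 11.6 scaled counts, and did not pass (-0.38 ± 0.18, adjusted p = 0.127 by edgeR). Il12a and Il12rb1 were not detectable above background at this depth in any sample, nor Il12b in the other 10 samples, which does not show that the transcripts were absent.

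Il6 itself was near background. Its mean scaled count was 17.4 ± 4.15 at P14 and 20.7 ± 6.42 at P28. Its raw counts were 6 to 26 at P14 and 18 to 33 at P28, and it was above background in 3 of 6 P14 samples and in 1 of 6 P28 samples, sample 138. These 4 of 12 samples were under the 40% needed for the test. When all 545 genes were tested without a filter, Il6 had a log2 fold change of 0.20 ± 0.21 (adjusted p = 0.569 by edgeR). On the same terms Il12a was at 0.07 ± 0.17, Il12b at -0.22 ± 0.21 and Il12rb1 at -0.66 ± 0.30, and none of these 4 passed, with unadjusted p of 0.362, 0.778, 0.306 and 0.0443 for Il6, Il12a, Il12b and Il12rb1.

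The receptor chains of IL-6 were abundant at both ages. Il6ra, the IL-6-binding chain, ranged from 13239 in sample 5 to 21876 in sample 25 at P14, with a median of 19658, and from 15900 in sample 119 to 20205 in sample 138 at P28, with a median of 17654. All P28 samples lay within the P14 range. The means were 19101 ± 3260 and 17795 ± 1477 scaled counts (-0.10 ± 0.12, adjusted p = 0.577 by edgeR). Il6ra passed as lower when counts were scaled to total counts (-0.25, adjusted p = 0.0331) or to positive controls alone (-0.88, adjusted p = 0.0439). The median of all genes was -0.14 and -0.74 on these scales. Relative to that median Il6ra lay at -0.11 and -0.15, beside -0.10 in the main scaling. A change of scale moves all genes nearly alike, so this closeness is no test of Il6ra.

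Il6st, which encodes gp130, ranged from 7071 in sample 5 to 10745 in sample 61 at P14, with a median of 9681. At P28 it ranged from 8271 in sample 118 to 13094 in sample 138, with a median of 11127. The means were 9461 ± 1253 and 10712 ± 1972 scaled counts (0.18 ± 0.14, adjusted p = 0.354 by edgeR). P28 samples 118 and 119 were the lowest of that age, at 8271 and 8441, and the other 4 lay between 10982 and 13094. Those samples also had the most Mbp, the myelin basic protein of oligodendrocytes, at 1091 and 724 scaled counts against 189 to 325 in the other P28 samples. The part of oligodendrocyte RNA in this difference was not tested.

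The balance of the IL-6 receptor chains was compared within samples. Il6ra gave 1.87 to 2.25 times the raw count of Il6st at P14 and 1.49 to 2.22 times at P28, and the ranges overlapped through P28 samples 118 and 119. The log2 ratio went from 1.01 ± 0.11 to 0.75 ± 0.23 (SD, n = 6 each), a difference of -0.26 (exact two-sided permutation p = 0.0325, Benjamini-Hochberg value 0.0487 over 3 pairs). Leaving out single samples gave -0.34 to -0.22, and the call held without P14 sample 61, P28 sample 118 or P28 sample 119 and was lost without any of the other 9, with adjusted values up to 0.0942.

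**Figure D3:**
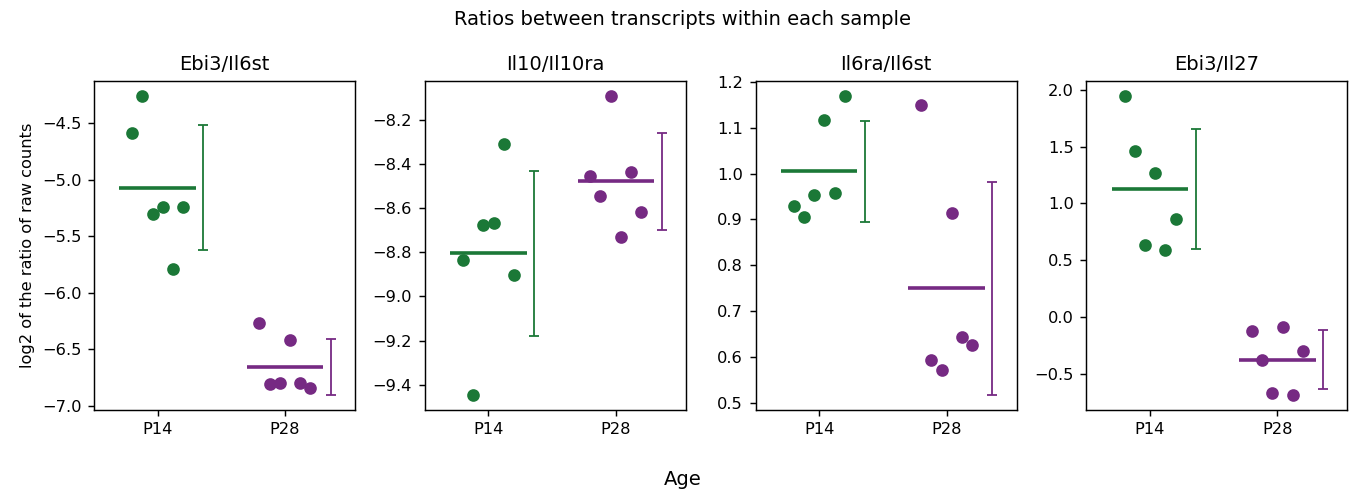
Log2 ratio of raw counts (vertical axes) of Ebi3 to Il6st, Il10 to Il10ra, Il6ra to Il6st and Ebi3 to Il27 in each sample by age; points are samples, bars means and error bars SD. The ages do not overlap for Ebi3 to Il6st and for Ebi3 to Il27, and overlap for the other pairs.

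On the IL-10 axis, the receptor chain was abundant and the ligand was just above background. Il10 ranged from 19.8 in sample 5 to 31.8 in sample 61 at P14, with a median of 24.9, and from 27.3 in sample 138 to 42.0 in sample 135 at P28, with a median of 31.3. All 6 P28 samples lay above the P14 median, and 3 of them above the highest P14 sample. The means were 25.4 ± 4.54 and 32.2 ± 5.41 scaled counts (0.32 ± 0.15, adjusted p = 0.116 by edgeR), so Il10 did not pass. It passed as higher with all 14 reference genes (0.41, adjusted p = 0.0359), with the authors' factors (0.45, adjusted p = 0.0314) and with limma on the authors' values (0.45, adjusted p = 0.0206). The median of all genes was 0.080, 0.13 and 0.18 in these settings. Relative to that median Il10 lay at 0.33, 0.32 and 0.27, beside 0.32 in the main scaling. A change of scale moves all genes nearly alike, so this closeness is no test of Il10. The authors' deposited table gave a ratio of 1.38 for Il10, with a p-value of 0.0090.

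Il10ra, the ligand-binding chain of the IL-10 receptor, ranged from 9142 in sample 25 to 13798 in sample 5 at P14, with a median of 11188, and from 10725 in sample 138 to 11859 in sample 118 at P28, with a median of 11365. All P28 samples lay within the P14 range. The means were 11314 ± 1688 and 11375 ± 407 scaled counts (0.0079 ± 0.10, adjusted p = 0.972 by edgeR). P14 samples 4 and 5 were the highest of all, at 12491 and 13798, and without them the fold change was 0.13 ± 0.08 (adjusted p = 0.218). The coefficient of variation of Il10ra was 14.9% at P14 and 3.58% at P28. Il10rb, the second chain of this receptor, singled out after its values were seen, did not pass either (0.06 ± 0.20, adjusted p = 0.859 by edgeR). P14 samples 4 and 5 were its lowest, at 4055 and 2911 scaled counts against 6830 to 7436 in the other 4, and without them its fold change was -0.21 ± 0.08 (adjusted p = 0.0576).

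The ratio of Il10 to Il10ra in the same sample did not pass. Il10ra gave a median of 433 times the raw count of Il10 at P14 and 362 times at P28. The log2 ratio of ligand to receptor averaged -8.81 ± 0.38 in P14 and -8.48 ± 0.22 in P28 samples (SD, n = 6 each), a difference of 0.33 (exact two-sided permutation p = 0.0909, Benjamini-Hochberg value 0.0909 over 3 pairs). Without P14 sample 61 the difference was 0.43 and passed (Benjamini-Hochberg value 0.0195).

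In order of mean scaled count, the tested members ran Il6ra, Il10ra, Il6st, Ebi3, then Il10 and Il23a at the lower end at P14, and the last pair changed places at P28. At P14 Il10ra and Il6st lay at 11314 ± 1688 and 9461 ± 1253, with overlapping samples, and at P28 at 11375 ± 407 and 10712 ± 1972, again with overlap. Il10 and Il23a also overlapped at each age. Il6ra lay above Il10ra, and Ebi3 above Il10 and Il23a, without overlap at P28.

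Other genes of these pathways were taken from 5 lists of textbook members, written with earlier results of these data known. Of the 46 listed genes, 32 were in the table and 22 were tested. Of these 22, 3 were higher at P28, 2 lower and 17 did not pass, beside 16.7% higher and 13.9% lower over all tested genes. Their median log2 fold change was 0.07.

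Among further ligands and receptor chains, Il27ra fell and the rest did not pass with the 6 reference genes and all samples. With total counts as the scale, Il12rb2 (-0.53, adjusted p = 0.0222 by edgeR) and Il11ra1 (-0.53, adjusted p = 0.0453) passed as lower. The median of all genes was -0.14 on that scale. Besides Il12rb2, the genes that did not pass in the main scaling included Il11ra1, the IL-11 receptor chain (-0.37 ± 0.18, adjusted p = 0.131 by edgeR). Csf3r, the receptor of G-CSF, was another (0.17 ± 0.28, adjusted p = 0.703 by edgeR). Csf3r had 6598 and 8602 scaled counts in P14 samples 4 and 5 against 2754 to 3602 in the other 4, and without those 2 samples it passed as higher (0.72 ± 0.18, adjusted p = 0.00605 by edgeR). The ligands Lif, Il19, Il20 and Il22 were in the table and were not above background often enough for the test.

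Downstream of the receptors, Ptpn6, the phosphatase SHP-1, rose from 5703 ± 318 to 7803 ± 949 scaled counts (0.45 ± 0.10, adjusted p = 0.00275 by edgeR). The kinases Jak1 (0.12 ± 0.16) and Jak2 (-0.14 ± 0.24) did not pass, and neither did Stat3, the main transcription factor behind gp130 and the IL-10 receptor (-0.30 ± 0.13, adjusted p = 0.0923). Stat3 passed as lower in 7 of 26 alternatives, among them TMM scaling (-0.34, adjusted p = 0.0120) and leaving out P14 samples 4 and 5 (-0.39, adjusted p = 0.0186), and Jak2 without P28 sample 138 (-0.48, adjusted p = 0.00752). Socs3, the feedback inhibitor of gp130 signalling and a target of STAT3, rose from 957 ± 428 to 2184 ± 319 (1.19 ± 0.26, adjusted p = 0.00275 by edgeR), with every P28 sample (1625 to 2583) above every P14 sample (549 to 1463). Nfkbiz, an atypical inhibitor of NF-kB that helps to induce Il6, also rose (0.73 ± 0.18, adjusted p = 0.00585). Il4ra (0.75 ± 0.34, adjusted p = 0.102), Il1rn (-0.42 ± 0.26) and Socs1 (-0.10 ± 0.34) did not pass. P14 samples 4 and 5 were the lowest for Il4ra, at 343 and 232 against 809 to 1335, and for Socs1, at 26.1 and 12.4 against 77.7 to 105. Without them Socs1 passed as lower (-0.48 ± 0.15, adjusted p = 0.0191 by edgeR) and Il4ra was at 0.36 ± 0.15 (adjusted p = 0.0701). Il4ra passed as higher in 4 alternatives, such as the authors' factors (0.90, adjusted p = 0.0431). With positive controls alone, where the median of all genes was -0.74, Ptpn6 was at -0.26 and the calls of Socs3 and Nfkbiz were lost.

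Genes that lymphocytes express in response to IL-12 and IL-23 were low. Ifng and Il17a were above background in 2 and 1 of the P14 samples and in 0 of the P28 samples. Il17f fell from 38.7 ± 3.93 to 28.6 ± 4.68 scaled counts (-0.44 ± 0.14, adjusted p = 0.0215 by edgeR), a call that was lost without P28 sample 118 (adjusted p = 0.0529) and with the authors' factors (adjusted p = 0.108). Tbx21 (0.28 ± 0.15) and Il21 (0.19 ± 0.19) did not pass.

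**Figure D4:**
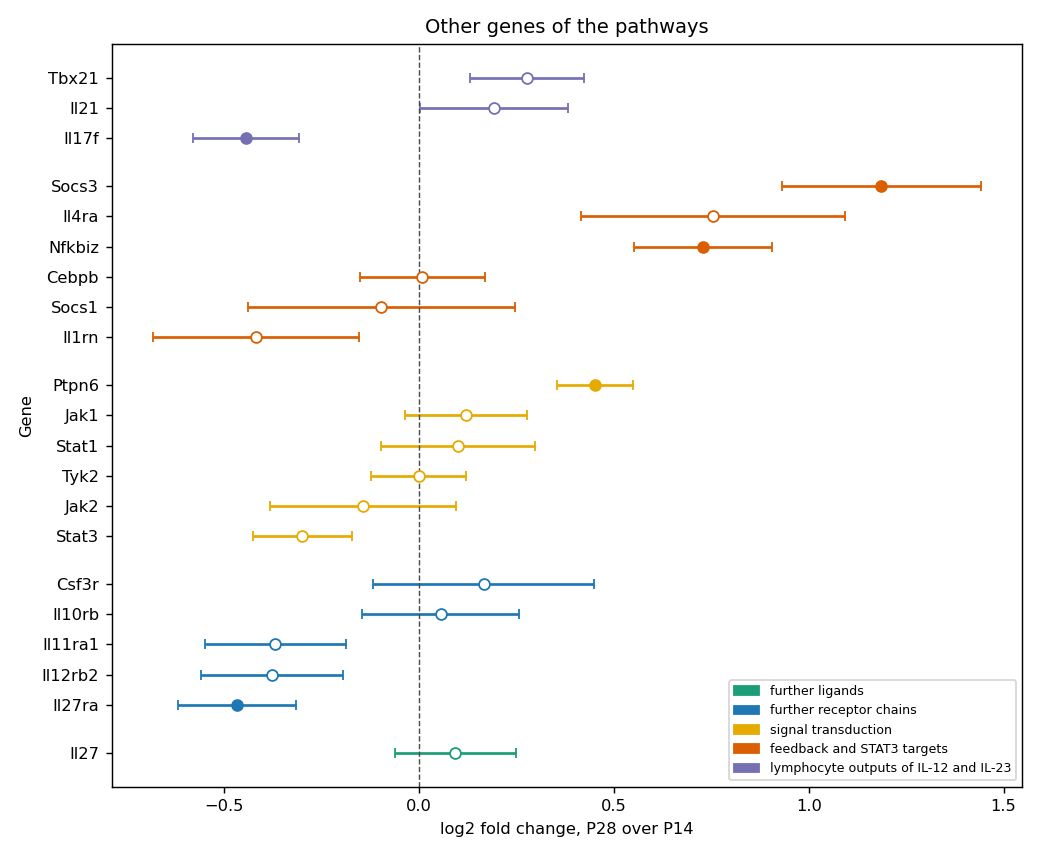
Log2 fold change, P28 over P14, of the tested pathway genes reported here, from 5 lists (horizontal axis), with its SE from edgeR, coloured by list; filled symbols passed a false discovery rate of 0.05. Socs3, Nfkbiz and Ptpn6 lie to the right and Il27ra and Il17f to the left.

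The genes outside the group whose pattern was most like that of a member were ranked by Pearson's r of log2 scaled counts over the 12 samples, among 360 genes, as a description. For Ebi3 the nearest were Fcer1g, through which activating Fc receptors signal (r = 0.958), and Il2rb, which binds IL-2 and IL-15 (r = 0.946). Both fell with age, and after each age's mean was removed the values of r were 0.557 and 0.367. For Il23a they were Ifi35 (r = 0.909, and 0.840 with the age means removed), Psmc2 (0.781 and 0.530) and Xbp1 (0.773 and 0.503). For Il10 they were Lilrb3 (0.763 and 0.653), Il1b (0.759 and 0.566) and Psmc2 (0.755 and 0.558). With total counts as the scale, Fcer1g and Il2rb were again among the 3 genes nearest to Ebi3, while Xbp1 for Il23a and Il1b and Psmc2 for Il10 gave way to other genes.

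**Figure D5:**
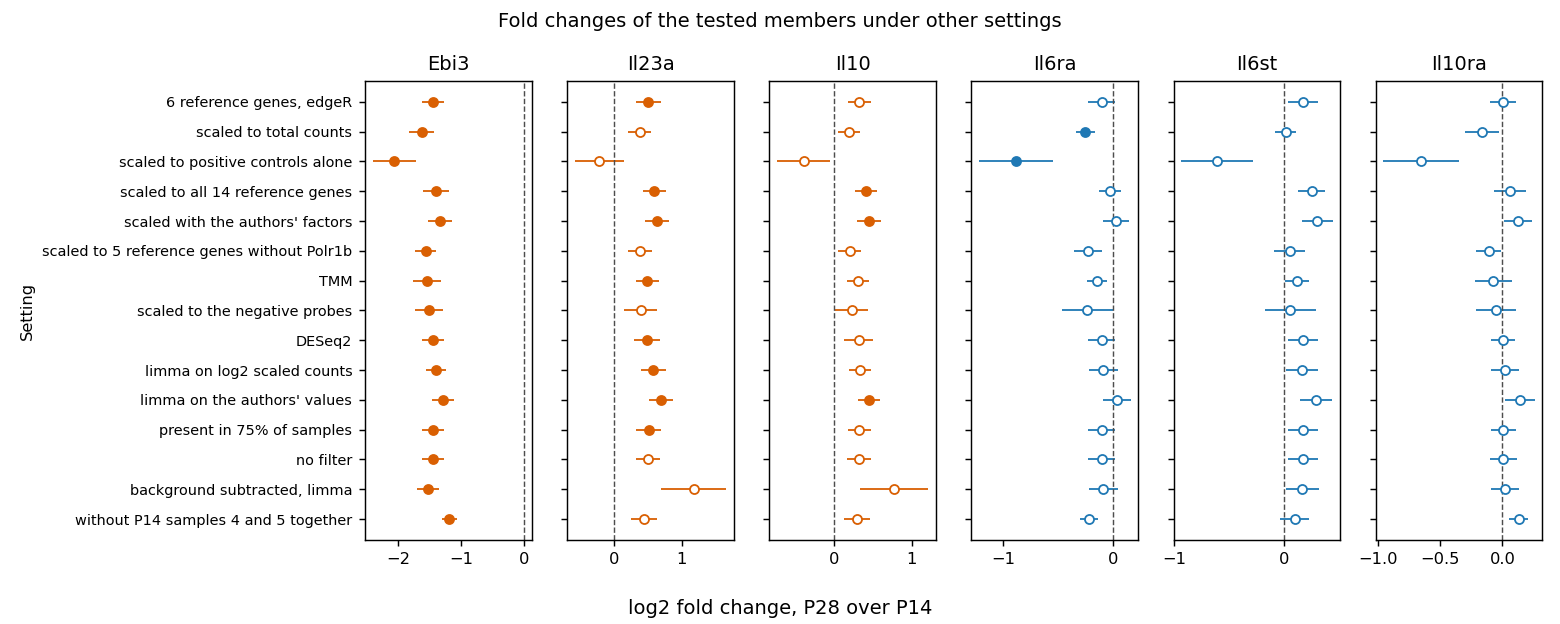
Log2 fold change, P28 over P14 (horizontal axes), of the 6 tested members in 15 settings of scaling, test, filter and samples, with SE; filled symbols passed a false discovery rate of 0.05. Ebi3 passed in every setting shown, Il23a in 8 of them and Il10 in 3.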

How the data were processed

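Microglial RNA of 12 control male mice was measured, 6 at P14 and 6 at P28, from 2 ng of RNA amplified by 5 rounds of PCR, per the labels' protocols. The main values are the authors' deposited raw barcode counts, not normalized. A further deposited table holds the authors' scaled values, treated as a score: per the series' design text, they are relative to positive controls and to reference genes, of which it states 5 and names 6. That table also holds the authors' ratio of means and a p-value from a t-test whose kind, like the counting software, is not stated in the labels or headers.

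Counts were scaled here to the geometric mean of the 6 named genes. Genes more than 2 SD over the average negative probe of their lane in at least 40% of samples (5 of 12) were fitted with edgeR 4.0.16 in R 4.3.3, and adjusted by Benjamini-Hochberg over 366 genes. Both ages entered the fit with no covariate. limma 3.58.1 (log2 of scaled count + 1) and DESeq2 1.42.0 were alternatives, beside other scalings, filters and samples left out. Ratios were tested by exact permutation over samples. The fit was tested on simulated data. All 10 members are named, with the genes of each pathway list that passed and up to 3 others with the smallest adjusted p. Some genes that this rule or the lists include are not reported here. The members and lists were chosen with earlier results of these data known. Scaling to the negative probes and the ratios of Ebi3 and Il27 were added after seeing the data.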

Additional observations from a re-analysis of the deposited data

Results flagged for a closer look

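In 3 of 20 groups of a member at an age, 1 sample lay far from the other 5 by Dixon's criterion, which chance meets in about 1 in 20 groups. Il6 in P28 sample 138 had a scaled count of 33.4, and the next sample had 20.1. Il12rb1 in the same sample was at 13.2, with the next at 7.83, and both were under the background threshold, whereas Il6 in that sample was above it. Il6st in P14 sample 5, the sample with the fewest counts, was at 7071, and the next lowest sample was at 9508.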

How the results depend on the processing

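Ebi3 fell and passed in all 26 alternatives, with log2 fold changes of -2.07 to -1.19, and the ratio of Ebi3 to Il6st passed in all 14 of its own. With 1 member higher and 1 lower in the report, the number higher was 0 with total counts, positive controls alone, no Polr1b, no filter, background subtracted or P14 samples 4 and 5 left out, and 2 with 14 reference genes, the authors' factors or limma on the authors' values. The number lower was 2 with total counts or positive controls. Of the pathway genes, 0 were higher with positive controls and 5 with limma on the authors' values, against 3. The number lower, 2 in the report, was 5 with total counts, 7 with positive controls, 1 with 14 reference genes, 0 with the authors' factors, 4 without Polr1b, 0 with limma on the authors' values and 5 without P14 samples 4 and 5. The receptor median was -0.16 with total counts, -0.65 with positive controls and 0.14 with limma on the authors' values. The ligand median was -0.40 with positive controls and 0.78 with background subtracted. With positive controls Il23a was at -0.22 and Ptpn6 at -0.26. Without P14 samples 4 and 5 the ratio of Il6ra to Il6st differed by -0.30 and did not pass (0.0786). Apart from the shift of all genes (-0.74 with positive controls), the cause was not tested. Leaving out single samples gave 0 to 1 members higher, 1 lower, 3 pathway genes higher, 1 to 3 lower, receptor medians of -0.046 to 0.073, ligand medians of 0.24 to 0.40, and differences of -1.73 to -1.42 for Ebi3 to Il6st, 0.20 to 0.43 for Il10 to Il10ra and -0.34 to -0.22 for Il6ra to Il6st. Of all 366 genes, 61 were higher and 51 lower in the report, 8 and 128 with positive controls, 51 and 96 with total counts, 50 and 74 without Polr1b, 89 and 42 with 14 reference genes, and 93 and 36 with the authors' factors. No paired analysis was possible because the ages share no sample number. Counts near the negative probes limit Il6, Il12a, Il12b and Il12rb1.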
